A study of Homo sapiens with 6 samples.

Results

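The 48 genes described here encode the proteins that license replication origins and build the DNA replication fork. They were chosen by gene symbol from a fixed list. All 48 were found among the 19942 gene symbols of the tables, and all 48 reached 1 FPKM (fragments per kilobase of transcript scaled to library size, a level per length) in at least 3 libraries. RNA was sequenced from HCT116, an established human colorectal carcinoma line, in 6 groups of 1 library each. Cells made resistant to the drug 5-fluorouracil, which blocks thymidylate synthase, received an siRNA against EHMT2 or a control siRNA, or were left untransfected. Parental (wild-type) cells were treated in the same 3 ways. EHMT2 encodes the histone methyltransferase G9a, and the series asks what it does in drug-resistant cells. The sources used here do not say whether the resistant cells are 1 clone, how long the siRNAs acted, or whether the drug was present at harvest.

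Replication starts in 2 steps. In G1, the origin recognition complex (ORC), CDC6 and CDT1 load the ring of MCM2 to MCM7 onto DNA, and geminin (GMNN) keeps CDT1 from loading it again later in the cycle. In S phase the kinase CDC7-DBF4, MCM10, CDC45 and the GINS complex turn the loaded rings into active helicases, and polymerases alpha, delta and epsilon copy DNA behind them with the clamp PCNA and its loader RFC. Many of these genes are known targets of E2F transcription factors, which drive the entry into S phase.

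The 48 genes were therefore searched for E2F site letters in the 250 bases before the transcription start given by RefSeq (build GRCh38.p14). Of the 48, 42 had a usable entry. GINS4, MCM4, MCM5, POLD3, RPA2 and RPA3 had none and could not be searched. The motif was TTTCCCGC, TTTGGCGC, TTTCGCGC or TTTGCCGC on either strand. It was found before 12 of these 42 genes (28.6%), against 2.79% of 27305 promoters in all and 4.67% of the 9131 promoters of the genes tested in the fits. The 12 were CDT1, GINS2, LIG1, MCM3, MCM6, MCM7, ORC3, PCNA, POLA1, POLA2, POLE and RFC3. A CCAAT box was found before 57.1% of the 42 genes, against 33.0% of all promoters and 35.1% of those of tested genes. A CHR element, TTTGAA or TTCGAA, was found before 1 of the 42 (2.38%), against 14.6% and 9.08%. Base composition was not matched in these shares, and a match is a run of letters, not a bound site. For each of the 12 genes, only the longest stretch without annotated exons was checked for holding a match. It held one for 4 genes, and these stretches are shown with the E2F letters in capitals. They lie on the minus strand for MCM3 (chr6:52284882-52284992, from 250 to 140 bases before the start), MCM6 (chr2:135876444-135876693, from 250 to 1) and PCNA (chr20:5126627-5126785, from 163 to 5), and on the plus strand for POLA1 (chrX:24693668-24693917, from 250 to 1).
MCM3: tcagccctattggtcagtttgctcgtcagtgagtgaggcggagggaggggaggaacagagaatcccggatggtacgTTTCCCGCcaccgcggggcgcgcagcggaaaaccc
MCM6: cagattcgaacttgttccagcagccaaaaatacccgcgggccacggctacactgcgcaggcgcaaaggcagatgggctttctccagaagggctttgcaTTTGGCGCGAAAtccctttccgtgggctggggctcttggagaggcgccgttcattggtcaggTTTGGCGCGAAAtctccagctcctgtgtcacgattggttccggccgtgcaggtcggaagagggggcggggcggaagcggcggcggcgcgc
PCNA: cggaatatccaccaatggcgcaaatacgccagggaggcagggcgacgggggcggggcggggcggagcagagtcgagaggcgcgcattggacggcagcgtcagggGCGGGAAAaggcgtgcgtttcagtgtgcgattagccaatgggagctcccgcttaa
POLA1: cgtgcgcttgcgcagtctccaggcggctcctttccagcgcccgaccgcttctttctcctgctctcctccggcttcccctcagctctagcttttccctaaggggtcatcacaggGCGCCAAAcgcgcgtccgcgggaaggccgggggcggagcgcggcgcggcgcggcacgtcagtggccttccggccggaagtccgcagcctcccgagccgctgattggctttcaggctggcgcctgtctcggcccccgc
MCM6 had 4 matches, which lie as 2 overlapping pairs on opposite strands, so that each run of 12 capitals, TTTGGCGCGAAA, holds TTTGGCGC on one strand and TTTCGCGC on the other. In PCNA and POLA1 the capitals are matches on the opposite strand.

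EHMT2 itself had 3.80 FPKM in resistant against 8.58 in parental cells under EHMT2 siRNA, 19.5 in resistant against 31.7 in parental cells under control siRNA, and 27.3 in resistant against 19.8 in parental cells without transfection. Both libraries labelled as knockdown were thus the lowest, at 19.5% of the control siRNA level in resistant and 27.1% in parental cells. FPKM summed to between 360730 and 446165 per library, and read depth is unknown, so no counting error can be given. All 5 epithelial markers were present, with a summed level of 1639 to 2560 FPKM. Of 7 markers of other cells, PTPRC, CD3E, COL1A2, PECAM1 and ALB were listed at 0 in all 6 libraries, and the summed level, from COL1A1 and DES, was 3.59 to 11.1 FPKM. The resistant untransfected library differed from both transfected resistant libraries in a large block of genes: over the 40 genes measured on chromosome 18's short arm there was a median resistant over parental log2 ratio of 0.01 with EHMT2 siRNA, 0.15 with control siRNA and 1.605 in untransfected cells. Whether the untransfected and transfected libraries labelled as resistant come from the same resistant population was not tested. This limits every untransfected line ratio and every ratio over untransfected cells given here. None of the replication genes lies on chromosome 18. Their EHMT2 siRNA and line results are given with and without the untransfected libraries. The difference of line ratios and the comparison of control siRNA with untransfected cells rest on the untransfected libraries and keep this limit. Ratios are log2 ratios of FPKM + 1, which understate the change of low genes. With 1 library per group, a ratio between a pair of libraries has no replicate check.

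Most of the replication genes had their lowest and highest levels in the same few libraries. Their level was lowest with EHMT2 siRNA in resistant cells for 42 of 48 genes, against 19.4% of the 11521 genes that reached 1 FPKM in 3 or more libraries. It was highest in resistant untransfected cells for 27 genes (19.4% of all genes) and in parental cells with control siRNA for 17 (12.2% of all genes). ORC4, RFC1, RPA1 and TIPIN were highest in another library, and GINS1, ORC2, ORC4, RFC1, RPA1 and RPA2 were not lowest in resistant cells with EHMT2 siRNA. In bulk RNA, a smaller share of cells in the phases that express these genes and less RNA per cell cannot be told apart.

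**Figure D1:**
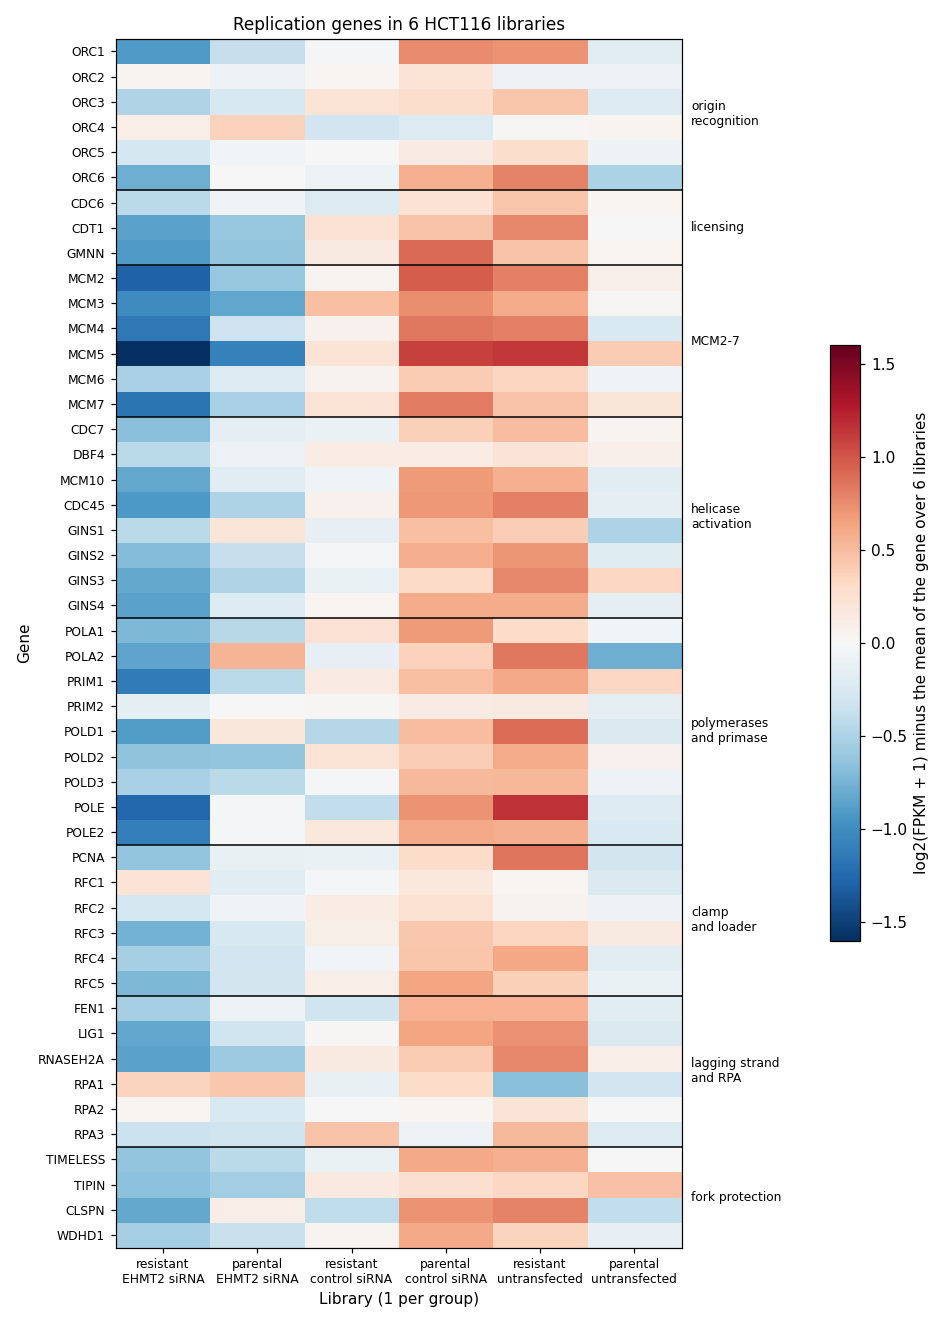
Heat map of the 48 replication genes (rows, by role) in the 6 libraries (columns). Colour gives log2(FPKM + 1) minus the mean of the gene over the 6 libraries, so red is above and blue below that mean. Most rows are darkest blue in resistant cells with EHMT2 siRNA and red in parental cells with control siRNA and in resistant untransfected cells.

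The first comparison asked what EHMT2 siRNA does to these genes in each line. They were lower in both lines for 42 of the 48 genes, against 36.7% of all genes. The median log2 ratio of EHMT2 siRNA over control siRNA was −0.71 for the resistant and −0.74 for the parental pair, while that of all genes was 0.06 and 0.09. In resistant cells 9 of the 48 were at least 2-fold lower (4.04% of all genes) and in parental cells 12 (3.51% of all genes), with 0 at least 2-fold higher in either line (5.22% of all genes in resistant and 7.48% in parental cells). The 7 genes at least 2-fold lower in both lines, against 2.35% of all genes, were CDT1, GMNN, MCM2, MCM3, MCM4, MCM5 and MCM7, all of which act in licensing.

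Both lines were also fitted together with limma, with line and treatment as additive terms and Benjamini-Hochberg adjustment over all genes. With all 6 libraries 0 of the 48 genes passed an adjusted p of 0.05, as did 0.0% of all 11521 genes in either direction. At an unadjusted p below 0.05 the fit had 16 of the 48 lower (11.1% of all genes) and 1 higher, ORC4 (15.5% of all genes). The lowest adjusted p was 0.0559, for MCM3. With the 4 siRNA libraries alone, where 1 residual degree of freedom is left before moderation, 35 of the 48 genes fell (18.7% of all genes) and 1, ORC4, rose (23.8% of all genes). At an unadjusted p below 0.05 that fit had 38 lower (23.1% of all genes) and 2 higher (29.3% of all genes). Below, a gene is said to have fallen or risen where it passed in this 4-library fit. The estimates are the same in both fits, and only the error differs. In the 6-library fit the error also holds the difference of the lines between untransfected and transfected cells, described further on. Before moderation the error of either fit is the disagreement between the lines in their treatment ratios. The p-values of either fit do not measure the spread among replicate cultures.

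The helicase subunits MCM2 to MCM7 had the lowest median of the role groups, and all 6 fell in the 4-library fit. Their median log2 ratio with EHMT2 siRNA was −1.36 for the resistant and −1.46 for the parental pair. MCM5 had 4.31 FPKM in resistant against 7.54 in parental cells under EHMT2 siRNA, 19.9 in resistant against 37.4 in parental cells under control siRNA, and 38.6 in resistant against 22.8 in parental cells without transfection. On the log2 scale MCM5 fell by 2.08 (SE 0.13; limma on 4 libraries, Benjamini-Hochberg adjusted p = 0.00075), and both knockdown libraries lay far below the other 4. With all 6 libraries its SE was 0.41 and its adjusted p 0.0674. MCM3 had 23.7 FPKM in resistant against 26.8 in parental cells under EHMT2 siRNA, 68.0 in resistant against 82.1 in parental cells under control siRNA, and 73.7 in resistant against 49.3 in parental cells without transfection, and it fell by 1.53. Again both knockdown libraries were the lowest.

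MCM2 had 8.35 FPKM in resistant against 14.1 in parental cells under EHMT2 siRNA, 22.6 in resistant against 43.8 in parental cells under control siRNA, and 39.0 in resistant against 23.2 in parental cells without transfection. MCM4 had 14.8 FPKM in resistant against 26.8 in parental cells under EHMT2 siRNA, 35.5 in resistant against 61.4 in parental cells under control siRNA, and 60.1 in resistant against 28.5 in parental cells without transfection. MCM7 had 26.0 FPKM in resistant against 41.2 in parental cells under EHMT2 siRNA, 69.7 in resistant against 106 in parental cells under control siRNA, and 82.2 in resistant against 68.0 in parental cells without transfection. In the 4-library fit MCM2 fell by 1.46, MCM7 by 1.36 and MCM4 by 1.19, and of these genes MCM4 with EHMT2 siRNA in parental cells was only slightly below the parental untransfected level. MCM2 shares 23.6% of its exonic bases with TPRA1 and AC023593.1, which makes its level less certain. MCM6 fell least, by 0.60, with ratios of −0.56 for the resistant and −0.63 for the parental pair.

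The subunits, which form a ring with 1 copy of each, thus had unequal messages. Summed over the 6 subunits, the level was 92.0 FPKM in resistant against 135 in parental cells under EHMT2 siRNA, 238 in resistant against 359 in parental cells under control siRNA, and 321 in resistant against 212 in parental cells without transfection. The highest subunit exceeded the lowest 6.05-fold in resistant against 5.46-fold in parental cells under EHMT2 siRNA, 3.50-fold in resistant against 3.65-fold in parental cells under control siRNA, and 2.98-fold in resistant against 3.33-fold in parental cells without transfection. MCM5 was the lowest subunit with EHMT2 siRNA in both lines.

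**Figure D2:**
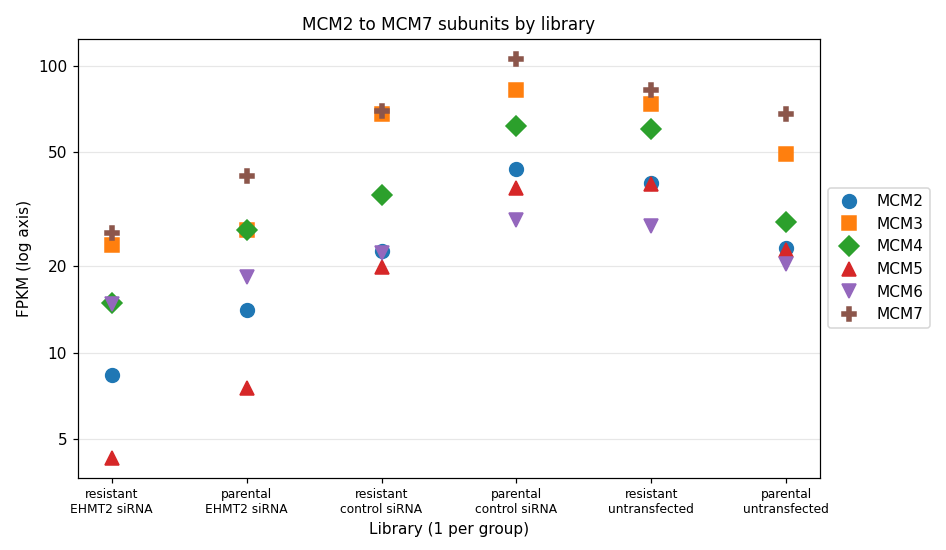
Levels of MCM2 to MCM7 in FPKM (log axis) in each of the 6 libraries, with 1 point per gene and library. With EHMT2 siRNA the 6 subunits lie between 4.31 FPKM (MCM5) and 26.0 FPKM (MCM7) in resistant cells and between 7.54 and 41.2 FPKM in parental cells, and MCM5 separates from MCM2.

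Among the other licensing genes, geminin and its target CDT1 were lower together. GMNN had 8.20 FPKM in resistant against 10.2 in parental cells under EHMT2 siRNA, 18.2 in resistant against 31.4 in parental cells under control siRNA, and 22.7 in resistant against 16.7 in parental cells without transfection, and it fell by 1.30 in the 4-library fit. CDT1 fell by 1.07, with ratios of −1.09 for the resistant and −1.06 for the parental pair. CDC6, the ATPase that works with CDT1, did not pass, with ratios of −0.21 for the resistant and −0.29 for the parental pair.

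ORC held genes that passed the test and genes that did not. ORC1, the subunit whose amount changes through the cell cycle, had 2.48 FPKM in resistant against 4.06 in parental cells under EHMT2 siRNA, 5.40 in resistant against 10.1 in parental cells under control siRNA, and 9.77 in resistant against 4.81 in parental cells without transfection. It fell by 1.00 in the 4-library fit, ORC6 by 0.64 and ORC3 by 0.62. ORC2, a core subunit, had 10.4 FPKM in resistant against 9.39 in parental cells under EHMT2 siRNA, 10.3 in resistant against 11.9 in parental cells under control siRNA, and 9.37 in resistant against 9.45 in parental cells without transfection. These values lie within 1.27-fold of each other, and ORC2 did not pass. ORC4 had 4.97 FPKM in resistant against 6.20 in parental cells under EHMT2 siRNA, 3.48 in resistant against 3.76 in parental cells under control siRNA, and 4.62 in resistant against 4.72 in parental cells without transfection, and it rose by 0.51 (SE 0.15; limma on 4 libraries, Benjamini-Hochberg adjusted p = 0.0319). ORC5 did not pass, with ratios of −0.28 for the resistant and −0.17 for the parental pair.

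Of the 8 genes that activate the helicase, 6 fell in the 4-library fit. CDC45, which completes the helicase with MCM and GINS, had 4.52 FPKM in resistant against 6.42 in parental cells under EHMT2 siRNA, 10.01 in resistant against 16.0 in parental cells under control siRNA, and 17.3 in resistant against 8.37 in parental cells without transfection, and it fell by 1.10. GINS4 had 1.79 FPKM in resistant against 3.31 in parental cells under EHMT2 siRNA, 4.12 in resistant against 6.56 in parental cells under control siRNA, and 6.58 in resistant against 3.57 in parental cells without transfection. It fell by 0.84, GINS2 by 0.81 and GINS3 by 0.76, whereas GINS1 did not pass, with ratios of −0.30 for the resistant and −0.30 for the parental pair. GINS4 shares 23.6% of its exonic bases with other annotated genes. MCM10 fell by 0.80 and the kinase gene CDC7 by 0.54. DBF4, which encodes the activator of CDC7, had 10.03 FPKM in resistant against 12.9 in parental cells under EHMT2 siRNA, 15.2 in resistant against 15.1 in parental cells under control siRNA, and 16.1 in resistant against 14.7 in parental cells without transfection. It did not pass, and its values varied 1.61-fold over the 6 libraries.

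Among polymerase genes 6 of 9 fell in the 4-library fit. PRIM1, the catalytic subunit of primase, had 5.33 FPKM in resistant against 9.17 in parental cells under EHMT2 siRNA, 13.99 in resistant against 18.2 in parental cells under control siRNA, and 19.8 in resistant against 16.3 in parental cells without transfection, and fell by 1.08. POLA1, the catalytic subunit of polymerase alpha, fell by 1.04. POLD2, a subunit of the lagging strand polymerase delta, had 37.9 FPKM in resistant against 38.3 in parental cells under EHMT2 siRNA, 70.3 in resistant against 79.4 in parental cells under control siRNA, and 91.3 in resistant against 63.0 in parental cells without transfection, and fell by 0.95. POLE, the catalytic subunit of the leading strand polymerase epsilon, fell by 0.80, its second subunit POLE2 by 0.95 and POLD3 by 0.72. Those not called were POLA2, POLD1, which encodes the catalytic subunit of polymerase delta, and PRIM2, the other primase subunit, with ratios of −0.18 for the resistant and −0.13 for the parental pair.

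The clamp loader genes RFC2 to RFC5 and PCNA fell, while RFC1, the large subunit, did not pass. RFC5 fell by 0.87, RFC3 by 0.77, RFC4 by 0.62 and RFC2 by 0.35. PCNA, the most abundant of the 48 messages, had 71.8 FPKM in resistant against 103 in parental cells under EHMT2 siRNA, 104 in resistant against 137 in parental cells under control siRNA, and 204 in resistant against 90.5 in parental cells without transfection, and it fell by 0.46. In parental cells PCNA with EHMT2 siRNA was above the untransfected level, and FEN1, the flap nuclease, stood likewise at 34.0 with EHMT2 siRNA and 31.9 FPKM untransfected. Of the 48 genes, 31 were below the untransfected level with EHMT2 siRNA in both lines (28.6% of all genes), and 17 were not.

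Of the lagging strand genes, RNASEH2A, the catalytic subunit of RNase H2, fell by 0.99, LIG1, DNA ligase I, by 0.90 and FEN1 by 0.42. RNASEH2A shares 30.8% of its exonic bases with THSD8. The genes of RPA, which coats single-stranded DNA, did not pass. RPA1 had 42.6 FPKM in resistant against 44.9 in parental cells under EHMT2 siRNA, 30.4 in resistant against 40.6 in parental cells under control siRNA, and 20.4 in resistant against 26.4 in parental cells without transfection. Unlike most of the 48 genes, it was lowest in resistant untransfected cells and highest in parental cells with EHMT2 siRNA. RPA2 had 33.3 FPKM in resistant against 27.3 in parental cells under EHMT2 siRNA, 32.7 in resistant against 33.3 in parental cells under control siRNA, and 37.8 in resistant against 32.5 in parental cells without transfection, a range of 1.38-fold over the 6 libraries.

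All 4 fork protection genes fell in the 4-library fit. TIPIN, which works in a complex with TIMELESS, had 6.13 FPKM in resistant against 6.67 in parental cells under EHMT2 siRNA, 11.5 in resistant against 12.4 in parental cells under control siRNA, and 13.2 in resistant against 14.6 in parental cells without transfection. Both knockdown libraries were about as low as each other, and TIPIN fell by 0.81. TIMELESS fell by 0.78, WDHD1, which ties polymerase alpha to the helicase, by 0.77 and CLSPN, claspin, which relays signals from stalled forks to CHK1, by 0.52. TIPIN shares 21.0% of its exonic bases with a ribosomal protein pseudogene, and PRIM1 shares 21.6% with other genes.

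The lines differed most in their EHMT2 siRNA ratios for POLA2, POLE2, RFC1 and RPA3. POLA2, the second subunit of polymerase alpha, had 1.01 FPKM in resistant against 4.27 in parental cells under EHMT2 siRNA, 2.29 in resistant against 3.65 in parental cells under control siRNA, and 5.45 in resistant against 1.09 in parental cells without transfection, with ratios of −0.71 for the resistant and 0.18 for the parental pair. Its lowest level was 1.01 FPKM, and 35.1% of its exonic bases are shared with AP000944.2. POLE2 had 2.61 FPKM in resistant against 6.49 in parental cells under EHMT2 siRNA, 7.65 in resistant against 10.7 in parental cells under control siRNA, and 10.49 in resistant against 5.48 in parental cells without transfection, with ratios of −1.26 for the resistant and −0.64 for the parental pair. RFC1 had 27.9 FPKM in resistant against 20.9 in parental cells under EHMT2 siRNA, 23.2 in resistant against 26.9 in parental cells under control siRNA, and 24.3 in resistant against 20.1 in parental cells without transfection, with ratios of 0.25 for the resistant and −0.35 for the parental pair. RFC1 was thus above its control in resistant cells and below it in parental cells. RPA3, the smallest RPA subunit, had 5.0 FPKM in resistant against 5.13 in parental cells under EHMT2 siRNA, 9.51 in resistant against 6.13 in parental cells under control siRNA, and 9.92 in resistant against 5.54 in parental cells without transfection, with ratios of −0.81 for the resistant and −0.22 for the parental pair. With 1 library per group these differences between the lines were not tested. Across the 48 genes, which are not independent, the ratios of both lines correlated with r = 0.825 (Spearman 0.79), and r was 0.824 over all 11521 genes, so that the likeness of the lines is not particular to replication genes.

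**Figure D3:**
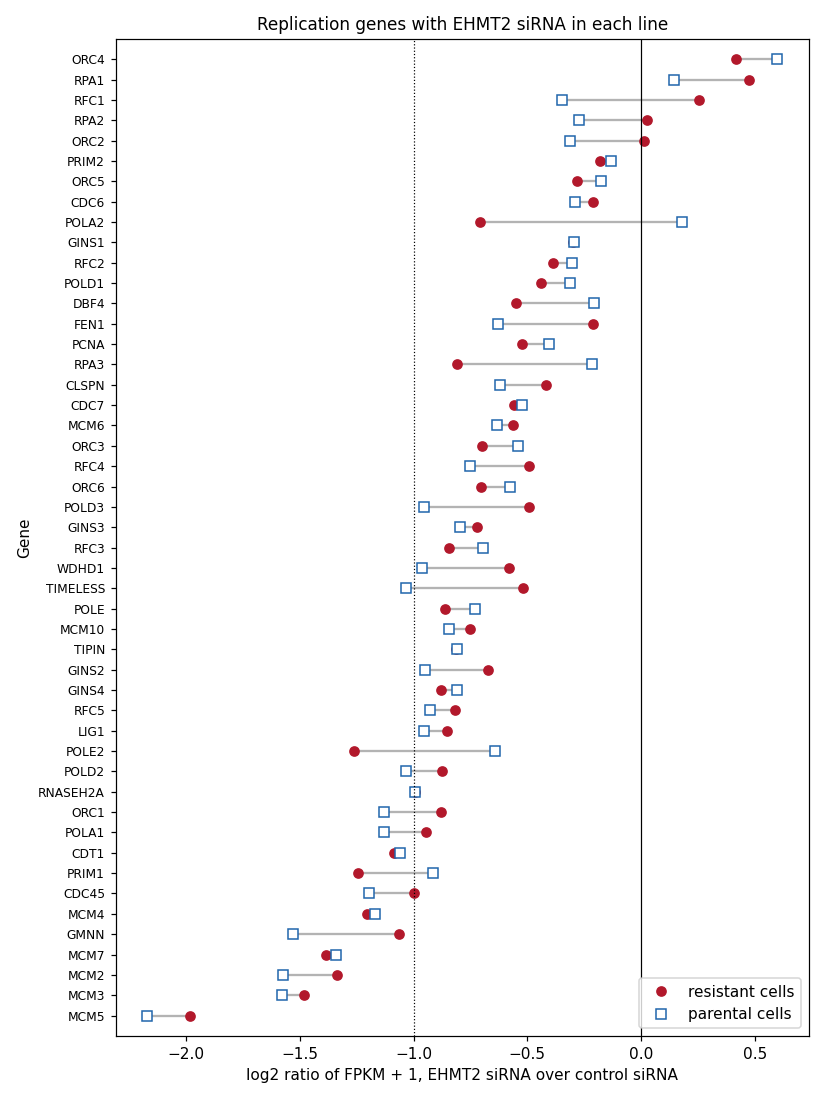
The log2 ratio of FPKM + 1 for EHMT2 siRNA over control siRNA in resistant cells (filled circles) and parental cells (open squares), with 1 row per gene, ordered by the mean of both lines. A grey line joins both values, and the dotted line marks a 2-fold lower level. MCM5 is lowest, with ratios of −1.98 for the resistant and −2.17 for the parental pair, and the points of ORC4 and RPA1 lie above 0 in both lines.

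The next comparison asked how resistant cells differ from parental cells. The direction differed between transfected and untransfected cells. The median resistant over parental ratio of the 48 genes was −0.33 with EHMT2 siRNA, −0.47 with control siRNA and 0.60 in untransfected cells, while the medians of all genes were −0.05, −0.02 and 0.07. In untransfected cells 44 of the 48 were higher in resistant cells, against 6610 of all 11731 genes of the pair. Of the 48, 7 were at least 2-fold higher (3.48% of all genes), with 0 at least 2-fold lower (3.92%). With control siRNA 46 of the 48 were lower in resistant cells, against 5995 of all 11557 genes. Of the 48, 2 were at least 2-fold lower (0.96% of all genes). With EHMT2 siRNA 45 of the 48 were lower, against 6570 of all 11937 genes. Here 4 were at least 2-fold lower (1.55% of all genes). Under either siRNA 0 were at least 2-fold higher in resistant cells (1.6% of all genes with control and 1.54% with EHMT2 siRNA). Together 40 genes were higher in untransfected and lower in both transfected resistant cells, against 26.8% of all genes.

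Where each library was scaled to an equal FPKM sum, the untransfected pair had a median of 0.82 for the 48 genes and 0.28 for all genes. The same scaling put the parental EHMT2 siRNA pair at −0.62 for the 48 and 0.20 for all genes, and parental control siRNA over untransfected cells at 0.79 and 0.19. The signs of these medians were thus those of the deposited values. Across the 48 genes the line ratio in untransfected cells correlated with that under control siRNA with r = −0.533 (Spearman −0.629), and r was −0.174 over all genes. These pairs share no library.

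The difference of the line ratios was tested in a limma fit with a term for line within the untransfected libraries, with 1 residual degree of freedom before moderation. That error comes from the 4 siRNA libraries, and the untransfected libraries, 1 per line, are assumed to vary like them. Of the 48 genes, 30 had a higher resistant minus parental difference in untransfected than in siRNA cells at an adjusted p below 0.05 (9.94% of all genes), and 0 a lower one (8.15% of all genes). At an unadjusted p below 0.05, 38 were higher (20.5% of all genes). With no filter on low genes 0 of 48 passed, and 0 of all 13995 genes of that fit passed in either direction. There 33 of the 48 were higher at an unadjusted p below 0.05, against 2091 of the 13995 genes. In the additive limma fit over 6 libraries 0 genes passed for the line (0.0%), with 0 of 48 at an unadjusted p below 0.05 (3.08% of all genes higher, 2.15% lower). With the 4 siRNA libraries 13 of the 48 fell in resistant cells and 0 rose (4.47% and 4.49% of all genes).

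The 2 largest estimates were those of POLA2 and POLE, while 4 of the 9 polymerase and primase genes passed, POLA2, POLD1, POLE and POLE2. POLE had 5.12 FPKM in resistant against 13.5 in parental cells under EHMT2 siRNA, 10.1 in resistant against 23.1 in parental cells under control siRNA, and 31.7 in resistant against 11.7 in parental cells without transfection. Its line ratios were −1.25 with EHMT2 siRNA, −1.11 with control siRNA and 1.36 in untransfected cells, and the difference between untransfected and siRNA cells was 2.54 (SE 0.21; limma, Benjamini-Hochberg adjusted p = 0.00199). POLD1 had 6.72 FPKM in resistant against 15.3 in parental cells under EHMT2 siRNA, 9.48 in resistant against 19.2 in parental cells under control siRNA, and 25.8 in resistant against 11.2 in parental cells without transfection. For POLD1 the difference was 2.15, and for POLA2 it was 2.57 with a larger SE, 0.40. In each of these genes the resistant level was above the parental one in untransfected cells and below it under both siRNAs. POLE2 also passed, with a difference of 1.57.

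CLSPN had 2.56 FPKM in resistant against 5.73 in parental cells under EHMT2 siRNA, 3.75 in resistant against 9.34 in parental cells under control siRNA, and 9.86 in resistant against 3.76 in parental cells without transfection. Its levels in resistant untransfected and parental control siRNA cells were close to each other and above the other 4, and the difference of line ratios was 2.21. ORC6, the smallest ORC subunit, had 8.17 FPKM in resistant against 14.7 in parental cells under EHMT2 siRNA, 13.9 in resistant against 22.3 in parental cells under control siRNA, and 26.3 in resistant against 10.1 in parental cells without transfection, and a difference of 2.003. MCM4 had a difference of 1.84, PCNA of 1.62, ORC1 of 1.55, MCM2 and LIG1 of 1.53 and MCM5 of 1.52. LIG1 had 7.93 FPKM in resistant against 11.8 in parental cells under EHMT2 siRNA, 15.1 in resistant against 23.7 in parental cells under control siRNA, and 25.4 in resistant against 12.5 in parental cells without transfection.

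The 18 genes without a call were ORC2, ORC4, ORC5, DBF4, GINS3, POLA1, PRIM1, PRIM2, POLD2, POLD3, RFC1, RFC2, RFC3, RPA1, RPA2, RPA3, TIPIN and WDHD1. Their estimates lay between −0.11 for RPA1 and 0.93 for POLD3. TIPIN had line ratios of −0.11 with EHMT2 siRNA, −0.10 with control siRNA and −0.13 in untransfected cells, and ORC2 of 0.14 with EHMT2 siRNA, −0.19 with control siRNA and −0.01 in untransfected cells. All 6 MCM ring genes and all 3 of CDC6, CDT1 and GMNN passed, against 0 of the 3 RPA genes. EHMT2, the targeted gene, passed as well, with a difference of 1.28 (SE 0.23; limma, Benjamini-Hochberg adjusted p = 0.0158).

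**Figure D4:**
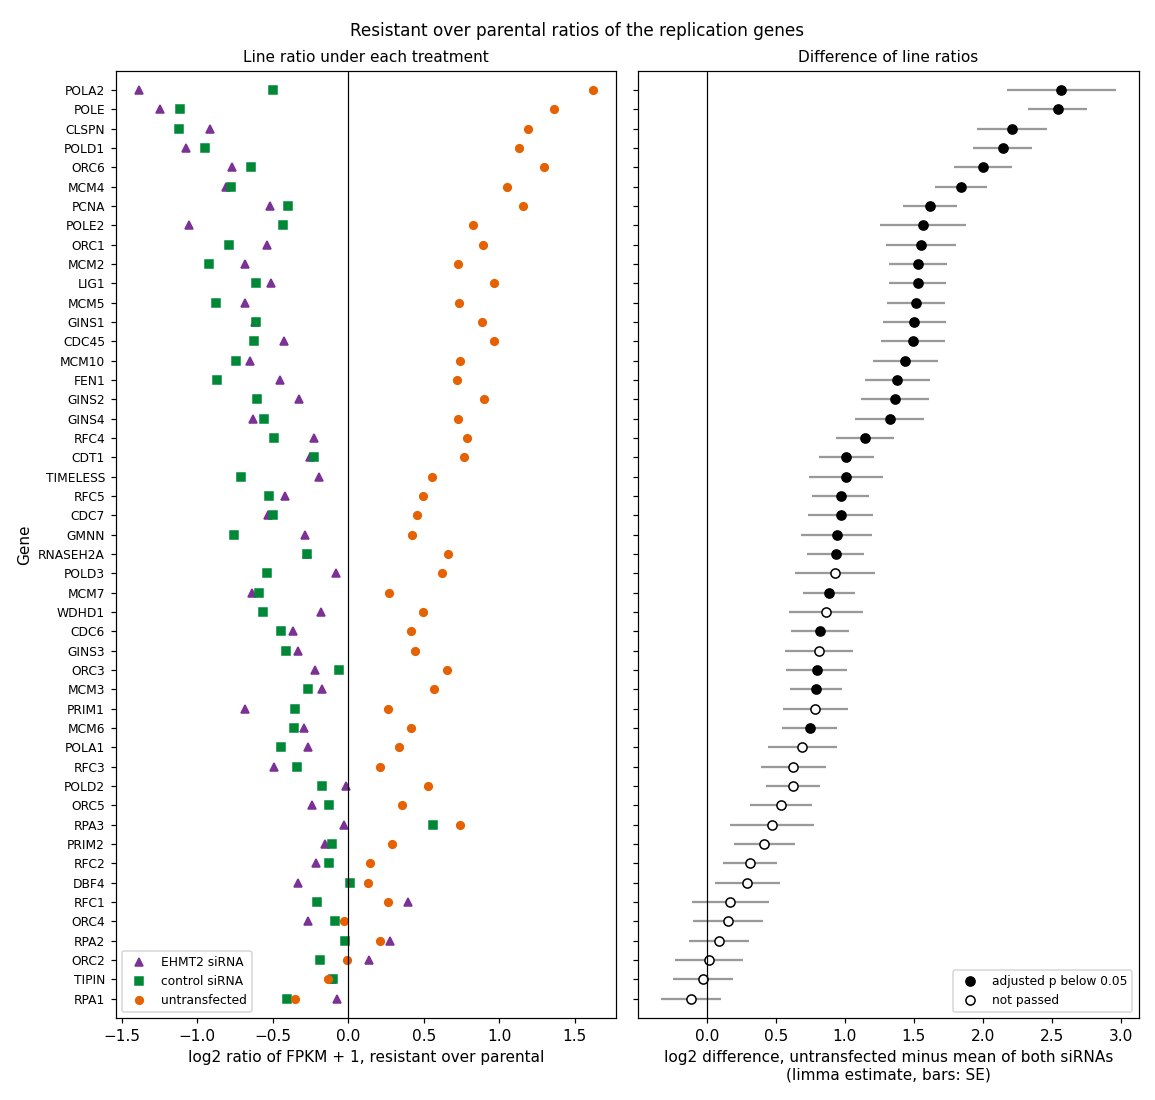
Left, the log2 ratio of FPKM + 1 for resistant over parental cells with EHMT2 siRNA (triangles), control siRNA (squares) and in untransfected cells (circles), with 1 row per gene. Right, the limma estimate of the untransfected ratio minus the mean of both siRNA ratios with its SE, filled where the adjusted p was below 0.05. POLA2 (2.57) and POLE (2.54) stand at the top, and RPA1 (−0.11) at the bottom.

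The last comparison set control siRNA against untransfected cells. Transfection with its handling, any difference in culture or date and whatever set the untransfected pair apart on chromosome 18's short arm cannot be told apart here. In resistant cells 45 of 48 genes were lower with control siRNA, against 6324 of all 11666 genes of the pair. The median log2 ratio of the 48 was −0.53 (all genes −0.05). Of the 48, 3 were at least 2-fold lower (3.87% of all genes) and 0 at least 2-fold higher (4.31%). In parental cells 45 of 48 were higher, against 6267 of all 11631 genes. The median of the 48 was 0.62 (all genes 0.04). Here 4 were at least 2-fold higher (0.954% of all genes) and 0 at least 2-fold lower (2.08%). The pattern of lower in resistant and higher in parental cells held for 42 of 48 genes, against 30.3% of all genes. POLE had the lowest ratio in resistant cells, −1.56, and 0.92 in parental cells. MCM3 was nearly level in resistant cells, at −0.11, against 0.72 in parental cells.

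In the additive limma fit over 6 libraries 0 of 48 genes passed for control siRNA against untransfected cells (0.0347% of all genes higher, 0.00868% lower), with 1, RPA1, higher at an unadjusted p below 0.05 (3.27% of all genes higher, 3.78% lower). Without the parental untransfected library 16 fell and 1 rose (9.37% and 8.5% of all genes), and without the resistant untransfected library 7 rose and 0 fell (1.6% and 1.99% of all genes). In each of these fits the untransfected arm is 1 library, assumed to vary like the siRNA libraries, which alone supply the error through 1 residual degree of freedom. The control siRNA libraries are also the base of the EHMT2 siRNA ratios, so these comparisons are not independent.

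Other genes of the pathway, outside the 48, were read from a list of 33 further replication proteins. In the 4-library limma fit 21 fell with EHMT2 siRNA (18.7% of all genes) and 1 rose (23.8%), and the median log2 ratio was −0.46 for the resistant and −0.56 for the parental pair. DTL, which targets CDT1 for destruction, fell by 1.21 and MCM8, a paralogue of the ring subunits that acts in repair, by 1.12. POLD4, the smallest subunit of polymerase delta, went the other way, with 40.5 FPKM in resistant against 27.1 in parental cells under EHMT2 siRNA, 17.6 in resistant against 8.40 in parental cells under control siRNA, and 13.1 in resistant against 26.8 in parental cells without transfection, and it rose by 1.37 (SE 0.14; limma on 4 libraries, Benjamini-Hochberg adjusted p = 0.00128). POLE4 did not pass, with ratios of 0.26 for the resistant and 0.56 for the parental pair. For the difference of line ratios 14 of the 33 passed as higher (9.94% of all genes) and 2, POLD4 and CHTF8, as lower (8.15%). POLD4 had an estimate of −1.75, against 2.15 for POLD1 and 0.93 for POLD3.

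Of 24 regulators of the E2F, RB and DREAM system, 9 fell (18.7% of all genes) and 3 rose (23.8% of all genes) with EHMT2 siRNA in the same fit, so that the share that rose was below that of all genes. MYBL2, a transcription factor of the DREAM system, had 5.38 FPKM in resistant against 9.73 in parental cells under EHMT2 siRNA, 19.0 in resistant against 31.6 in parental cells under control siRNA, and 36.0 in resistant against 20.9 in parental cells without transfection, and it fell by 1.62. FOXM1, which drives mitotic genes, fell by 1.33 and E2F1, an activator of replication genes, by 1.05. E2F6, a repressive E2F, rose by 0.87, cyclin D1 (CCND1) by 0.66 and LIN37 by 0.50. For the difference of line ratios 10 of the 24 passed as higher (9.94% of all genes) and 1, TFDP2, as lower (8.15%). Among the 42 replication genes with a promoter entry, the 12 with an E2F match had median EHMT2 siRNA ratios of −0.85 for the resistant and −0.84 for the parental pair, and the 30 without a match −0.56 and −0.64. The ranges of both sets overlapped in both lines, and the difference was not tested.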

How the data were processed

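RNA-seq libraries, 1 per group, were made from total RNA with a TruSeq RNA kit (per the labels' protocols). Build GRCh38 and the tools StringTie 2.1.1, HISAT2 2.2.1, cutadapt 4.9 and FastQC 0.12.1 are named by the submitters' processing notes, which do not give their roles here. The sources used here name no annotation or strand setting. The authors deposited FPKM values, 19957 rows per library. They hold no counts, so depth is unknown. Of rows sharing a symbol the one of highest mean was kept. Shared exonic bases come from GENCODE on GRCh38.

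Values were analysed as log2(FPKM + 1). A pair of libraries counts genes that reach 1 FPKM in either. Fits used R 4.3.3 and limma 3.58.1 with its variance trend, on 11521 genes reaching 1 FPKM in 3 or more libraries, Benjamini-Hochberg adjusted at 0.05, and were tested on simulated data. The 4-library fit is an alternative to the 6-library one. Values in all libraries are given for the 8 lowest and 4 highest genes by mean EHMT2 siRNA ratio, the 5 highest and 5 lowest by untransfected line ratio, the 4 whose lines differ most, the 3 highest and 3 lowest by level, the 12 largest calls of the 6-library fits, and EHMT2. Of each other list the 2 highest and 2 lowest are named; E2F1, LIN37, CHTF8 and TFDP2 were named after their values were seen. The genes and lists were chosen with earlier results of these data known. Alternatives were another pseudocount, filter, fold size or scaling, no trend, summed rows, the 4 siRNA libraries and leaving out each library.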

Additional observations from a re-analysis of the deposited data

Results flagged for a closer look

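The resistant over parental ratio was compared between untransfected and siRNA cells (limma with Benjamini-Hochberg adjustment). Of all genes, 9.94% were past the threshold with a higher ratio in untransfected cells and 8.15% with a lower one. Of the 48 genes 30 were past it, each with a higher ratio in untransfected cells. Among them, the 12 largest estimates on the log2 scale were 2.57 for POLA2, 2.54 for POLE, 2.21 for CLSPN, 2.15 for POLD1, 2.003 for ORC6, 1.84 for MCM4, 1.62 for PCNA, 1.57 for POLE2, 1.55 for ORC1, 1.53 for MCM2, 1.53 for LIG1 and 1.52 for MCM5. Batch, culture or population differences between the untransfected and the siRNA libraries cannot be told apart from transfection.

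With EHMT2 siRNA, 4 genes had opposite directions in the lines, with resistant minus parental differences of 0.32 for ORC2, −0.89 for POLA2, 0.60 for RFC1 and 0.30 for RPA2. These differences rest on 1 library per group and were not tested.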

How the results depend on the processing

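No paired analysis was possible because the groups share only the replicate number 1. Of the EHMT2 siRNA calls, 1 gene, MCM3, fell where the filter was 5 FPKM (1.61% of all genes). With the 4 siRNA libraries 35 of the 48 fell and 1 rose (18.7% and 23.8% of all genes). Leaving out each library in turn gave 0 to 36 that fell and 0 to 1 that rose, with 36 and 1 where one or the other untransfected library was left out. For the line 13 fell with the 4 siRNA libraries (4.47% of all genes). The median line estimate of the 48 was −0.435 without one or the other untransfected library. It was 0.045 to 0.067 without one of the siRNA libraries. For control siRNA against untransfected cells, leaving out a library gave 0 to 7 that rose and 0 to 16 that fell. The difference of line ratios lost all calls with no filter on low values, 0 of 48 and 0 of all 13995 genes of that fit.

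Counts past a fold moved as follows. Percentages are shares of all genes of the pair at the same setting. At 1.5-fold, 27 in resistant (13.4%) and 30 in parental cells (12.8%) were lower with EHMT2 siRNA. In resistant against parental cells 14 were lower with EHMT2 siRNA (9.5%), 17 lower with control siRNA (5.52%) and 24 higher when untransfected (11.8%). With control siRNA over untransfected cells 21 were lower in resistant (13.2%) and 28 higher in parental cells (6.95%). At 4-fold there was 1, MCM5 with EHMT2 siRNA in parental cells (0.134%), and 0 in the other 6 pairs (0.0602% to 0.454%). In resistant cells a pseudocount of 0.1 gave 15 lower with EHMT2 siRNA (6.44%) and 5 lower with control siRNA than untransfected (6.6%). Median centring (4.81%) and quantile normalisation (5.15%) each gave 19 lower with EHMT2 siRNA in parental cells. Rescaling to the same sum gave 15 higher in resistant untransfected cells (6.16%), and with control siRNA 5 lower in resistant (4.31%) and 13 higher in parental cells (2.07%).

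Single estimates were followed only for the replication genes whose levels in all 6 libraries are given above, so other replication genes may also change sign. Among the genes followed, EHMT2 siRNA estimates of the 6-library fit changed sign for 5. None of these 5 passed with all 6 libraries or with the library left out, although CLSPN fell in the 4-library fit. The sign changed in all 5 without the parental control siRNA library, for POLA2 and POLD1 also without the resistant EHMT2 siRNA one, and for RFC1 without the parental EHMT2 siRNA one. With a library left out, the ranges were −1.15 to 0.11 for CLSPN, −1.24 to 0.71 for POLA2, −0.96 to 0.21 for POLD1, −0.32 to 0.22 for RFC1 and −0.26 to 0.009 for RPA2, and rescaling gave 0.042 for RFC1. The difference of line ratios became −0.10 for ORC2 with quantile normalisation, and 0.13 for RPA1 and 0.21 for TIPIN with rescaling. The cause was not tested. Read depth is unknown, which limits low genes such as POLA2 most.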

Other observations

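Within a library FPKM is comparable per length between genes that act as partners. The level of CDT1 relative to its inhibitor GMNN was 1.24 in resistant against 1.20 in parental cells under EHMT2 siRNA, 1.24 in resistant against 0.849 in parental cells under control siRNA, and 1.48 in resistant against 1.15 in parental cells without transfection. Parental cells with control siRNA were the only library with more GMNN than CDT1 message. The level of DBF4 relative to CDC7 was 2.52 in resistant against 2.08 in parental cells under EHMT2 siRNA, 2.40 in resistant against 1.61 in parental cells under control siRNA, and 1.59 in resistant against 2.05 in parental cells without transfection. It was lowest in resistant untransfected cells and in parental cells with control siRNA. MCM3 relative to MCM5 was 5.51 in resistant against 3.56 in parental cells under EHMT2 siRNA, 3.41 in resistant against 2.195 in parental cells under control siRNA, and 1.91 in resistant against 2.16 in parental cells without transfection. These ratios have no replicates and were not tested.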
